A study of Mus musculus with 12 samples.

Results

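DNA replication is carried out by a set of proteins that cells make in large amounts when they enter S phase. The 47 genes examined here encode this machinery and were listed by name with earlier results of these data known. All 47 are among the 12591 genes that the deposited table lists. They comprise 9 factors of origin licensing, the 6 subunits of the MCM helicase, 6 factors that activate it, 9 subunits of the replicative polymerases alpha, delta and epsilon, 7 of the sliding clamp and its loaders, the 3 subunits of the single-strand binding protein RPA, 2 enzymes of Okazaki fragment maturation, 3 fork protection factors, and 2 subunits of the histone chaperone CAF-1. In brief background, the origin recognition complex marks origins, Cdc6 and Cdt1 load the MCM ring there, and Cdc45 and the GINS complex turn it into an active helicase. Polymerases then copy both strands while the PCNA ring holds them on the DNA. In cells that have stopped dividing, such as fibroblasts in contact with each other, many of these genes are kept low by repressor complexes of the E2F family and DREAM.

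The cells were mouse embryonic fibroblasts heterozygous for the PER2::LUC knock-in, a fusion of luciferase to the endogenous clock protein Period 2, labelled as strain C57 PER2::LUC. They were grown to confluence and then received, for 24 h, medium with vehicle (CTL), 10 μM of the AHCY inhibitor deazaneplanocin A (DZ), 1 mM adenine, or 1 mM S-adenosylmethionine (SAM). HCl at 3.3 mM was present in every group, CTL included, because it was the solvent of adenine. Each group had 3 replicate dishes, and nothing says that they came from separate cultures, so p-values measure the spread between dishes. The dose of DZ was not that of adenine and SAM.

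Poly(A) RNA was sequenced, and the values are log2 CPM, the log2 of each gene’s reads after scaling every library to one normalised size. Between 45649534 and 56789090 reads fell on the listed genes of a library, and no member had fewer than 113 reads in any library. Replicate libraries differed by more than counting noise in all 12 pairs. Chi-square per degree of freedom was 15.7 and 19.1 in the pairs with SAM replicate 3 and 4.76 to 7.07 in the other 10. Counts of members called with SAM are therefore also given without SAM replicate 3. DZ replicate 1 gave the lowest of the 3 DZ values for 37 of the 47 members. How often it was lowest over all genes was not tallied, so it was singled out by the members' own values. Counts of members called with DZ are therefore also given without that replicate. The table lists 8 of 10 fibroblast markers, which summed to 21841 to 22281 CPM in CTL, 27665 to 28259 in DZ, 24224 to 26540 in adenine, and 15862 to 17240 in SAM. The sum fell with SAM through 1 gene, Fn1 (log2 fold change -1.58), while the other 7 were called higher with SAM, and 7 were higher and 1 lower with DZ and 5 and 1 with adenine. Of 10 leukocyte markers it lists Cd68 and Cd74 and not Ptprc, and their sum was 106 to 111 CPM in CTL, 86.7 to 96.3 in DZ, 136 to 153 in adenine, and 182 to 200 in SAM, so it moved with the members in adenine and SAM. The table lists none of 6 epithelial markers, and it lists 1 of 6 endothelial markers, Egfl7, at 3.48 to 8.42 CPM over the 12 libraries. The part of other cell types in the results was not tested.

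The promoters of the members with the largest and the smallest changes under SAM are shown first, since E2F repressor and activator complexes bind such sites. Windows of 300 bases, from 250 before to 50 after the annotated start, were taken from RefSeq on mouse build GRCm38.p6 and were matched for 37 members. Each is written 5′ to 3′ on the strand of the gene, and capitals mark the E2F motif, searched as TTTCCCGC, TTTCGCGC, TTTGCCGC and TTTGGCGC on both strands. The window of Cdc6 lies at chr11:98907901-98908200 (+), that of Mcm10 at chr2:5012742-5013041 (-), and that of Rpa2 at chr4:132768110-132768409 (+). These 3 genes rose most under SAM. Orc2 has a window at chr1:58505060-58505359 (-) and another at chr1:58501377-58501676 (-), and Mcm2 has one at chr6:88898731-88899030 (-). These 2 genes had the lowest log2 fold changes under SAM.
Cdc6: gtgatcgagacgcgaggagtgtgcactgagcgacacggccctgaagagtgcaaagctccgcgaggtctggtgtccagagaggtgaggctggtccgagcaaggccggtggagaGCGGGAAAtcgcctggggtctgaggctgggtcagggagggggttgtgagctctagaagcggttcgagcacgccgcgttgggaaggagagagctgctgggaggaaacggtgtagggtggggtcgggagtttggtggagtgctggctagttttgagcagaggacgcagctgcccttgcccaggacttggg
Mcm10: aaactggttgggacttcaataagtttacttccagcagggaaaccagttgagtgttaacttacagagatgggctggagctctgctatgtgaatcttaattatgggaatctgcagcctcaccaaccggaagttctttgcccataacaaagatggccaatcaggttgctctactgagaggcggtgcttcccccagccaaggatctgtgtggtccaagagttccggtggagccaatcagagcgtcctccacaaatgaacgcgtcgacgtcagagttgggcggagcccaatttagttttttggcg
Rpa2: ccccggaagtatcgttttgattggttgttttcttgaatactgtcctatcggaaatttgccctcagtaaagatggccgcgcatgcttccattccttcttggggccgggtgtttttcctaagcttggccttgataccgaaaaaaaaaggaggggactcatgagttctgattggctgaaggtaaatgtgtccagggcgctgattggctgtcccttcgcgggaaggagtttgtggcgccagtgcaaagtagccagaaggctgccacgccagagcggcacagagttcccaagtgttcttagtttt
Orc2, window 1: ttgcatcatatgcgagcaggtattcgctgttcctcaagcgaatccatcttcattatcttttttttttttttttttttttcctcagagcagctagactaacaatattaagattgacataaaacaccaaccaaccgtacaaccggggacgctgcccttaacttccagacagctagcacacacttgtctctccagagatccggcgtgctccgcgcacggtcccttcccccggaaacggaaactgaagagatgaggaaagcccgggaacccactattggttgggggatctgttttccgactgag
Orc2, window 2: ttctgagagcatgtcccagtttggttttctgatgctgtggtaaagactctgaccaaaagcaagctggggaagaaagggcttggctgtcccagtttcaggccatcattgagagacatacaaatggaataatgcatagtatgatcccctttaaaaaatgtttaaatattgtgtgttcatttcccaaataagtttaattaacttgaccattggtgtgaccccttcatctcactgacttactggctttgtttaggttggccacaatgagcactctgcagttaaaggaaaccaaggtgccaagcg
Mcm2: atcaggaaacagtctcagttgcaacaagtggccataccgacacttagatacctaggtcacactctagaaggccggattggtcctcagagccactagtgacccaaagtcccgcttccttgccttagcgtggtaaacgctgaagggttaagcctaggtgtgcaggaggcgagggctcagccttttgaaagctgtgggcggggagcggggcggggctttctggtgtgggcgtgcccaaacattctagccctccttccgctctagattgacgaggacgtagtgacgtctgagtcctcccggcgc
The window of Cdc6 held 1 match, GCGGGAAA, which starts 138 bases before the annotated start and lies on the reverse strand. The windows of the other 4 genes held none, which says only that these letters are not in them.

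Other licensing and MCM genes did hold the motif, and 30 bases around the match nearest to the start are shown for each of them, a choice made after their values were seen. The stretches lie at chr4:108579416-108579445 (+) for Orc1, chr4:34614965-34614994 (-) for Orc3, chr8:122568035-122568064 (+) for Cdt1, chr1:20820275-20820304 (-) for Mcm3, chr8:75109349-75109378 (+) for Mcm5, chr1:128359734-128359763 (-) for Mcm6, and chr5:138171849-138171878 (-) for Mcm7. Capitals here mark only that nearest match. The stretch of Mcm5 holds another match, TTTCGCGC, that overlaps the marked one, so its first bases, tttc, are in lower case.
Orc1: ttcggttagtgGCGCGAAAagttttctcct
Orc3: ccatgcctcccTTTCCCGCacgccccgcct
Cdt1: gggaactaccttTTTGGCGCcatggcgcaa
Mcm3: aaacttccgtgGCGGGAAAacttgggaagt
Mcm5: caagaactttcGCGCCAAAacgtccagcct
Mcm6: gattggacgggTTTGGCGCgaagtagctca
Mcm7: gggtgacgacgTTTCGCGCcaatttcggtt
In all, 15 of the 37 matched members (40.5%) held an E2F motif, against 5.04% of the 8821 genes of the table with a window and 2.26% of all 32851 windows. The CCAAT box (CCAAT on either strand) was in 22 of the 37 members (59.5%), against 43.8% of the genes with a window and 37.4% of windows. GGGCGG was in 28 (75.7%, against 71.4% and 35.7%), and TTTGAA, the core of the cell cycle homology region, was in 5 (13.5%, against 14.1% and 17.9%). These shares are descriptions without a test.

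Adenine and SAM raised most of the replication genes, and DZ raised fewer of them and by less. Under SAM 42 of the 47 members were higher than in CTL at an FDR under 0.01 and 1 was lower, while over all genes 33.7% were called higher and 35.7% lower. The median log2 fold change of the members was 1.55 (all genes -0.015), and 33 members had a log2 fold change of at least 1, a size reached by 7.51% of all genes. Without SAM replicate 3 the counts were again 42 and 1, with a median of 1.54. Under adenine 41 members were higher and 2 lower, against 30.6% and 31.0% of all genes, with a median of 1.22 (all genes -0.0030). Under DZ 25 members were higher and 3 lower, against 22.6% and 23.4% of all genes, with a median of 0.22 (all genes -0.0057) and a range from -0.49 to 0.60. Without DZ replicate 1 the counts under DZ were 28 higher and 2 lower, without DZ replicate 2 they were 18 and 3, and with voom on the recovered reads they were 21 and 3. Shares of all genes called were not tallied for refits that left out a library or used voom. Those above belong to the full fit.

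Summed over the 47 members, the level was 1754 ± 21.1 CPM in CTL, 1949 ± 76.6 in DZ, 3180 ± 46.1 in adenine, and 3845 ± 16.0 in SAM (mean ± SD, n = 3 each). These sums are 1.11, 1.81 and 2.19 times that of CTL, or 1.12, 1.95 and 2.39 times when Mcm2, which hardly changed, is left out. Because whole dishes were lysed, a larger share of cells in S phase and more RNA per cell cannot be told apart. With plain read totals in place of the scaling of the authors, the median of all genes under SAM moved from -0.015 to 0.11, and 61.2% of all calls were higher instead of 48.5%. The members then numbered 45 higher and 0 lower under SAM, with a median of 1.67. Of all 12591 genes, 5462 were then called higher and 3462 lower. At an FDR of 0.01, 8 of the 11 groups of factors had every member higher under adenine and 9 did so under SAM.

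**Figure D1:**
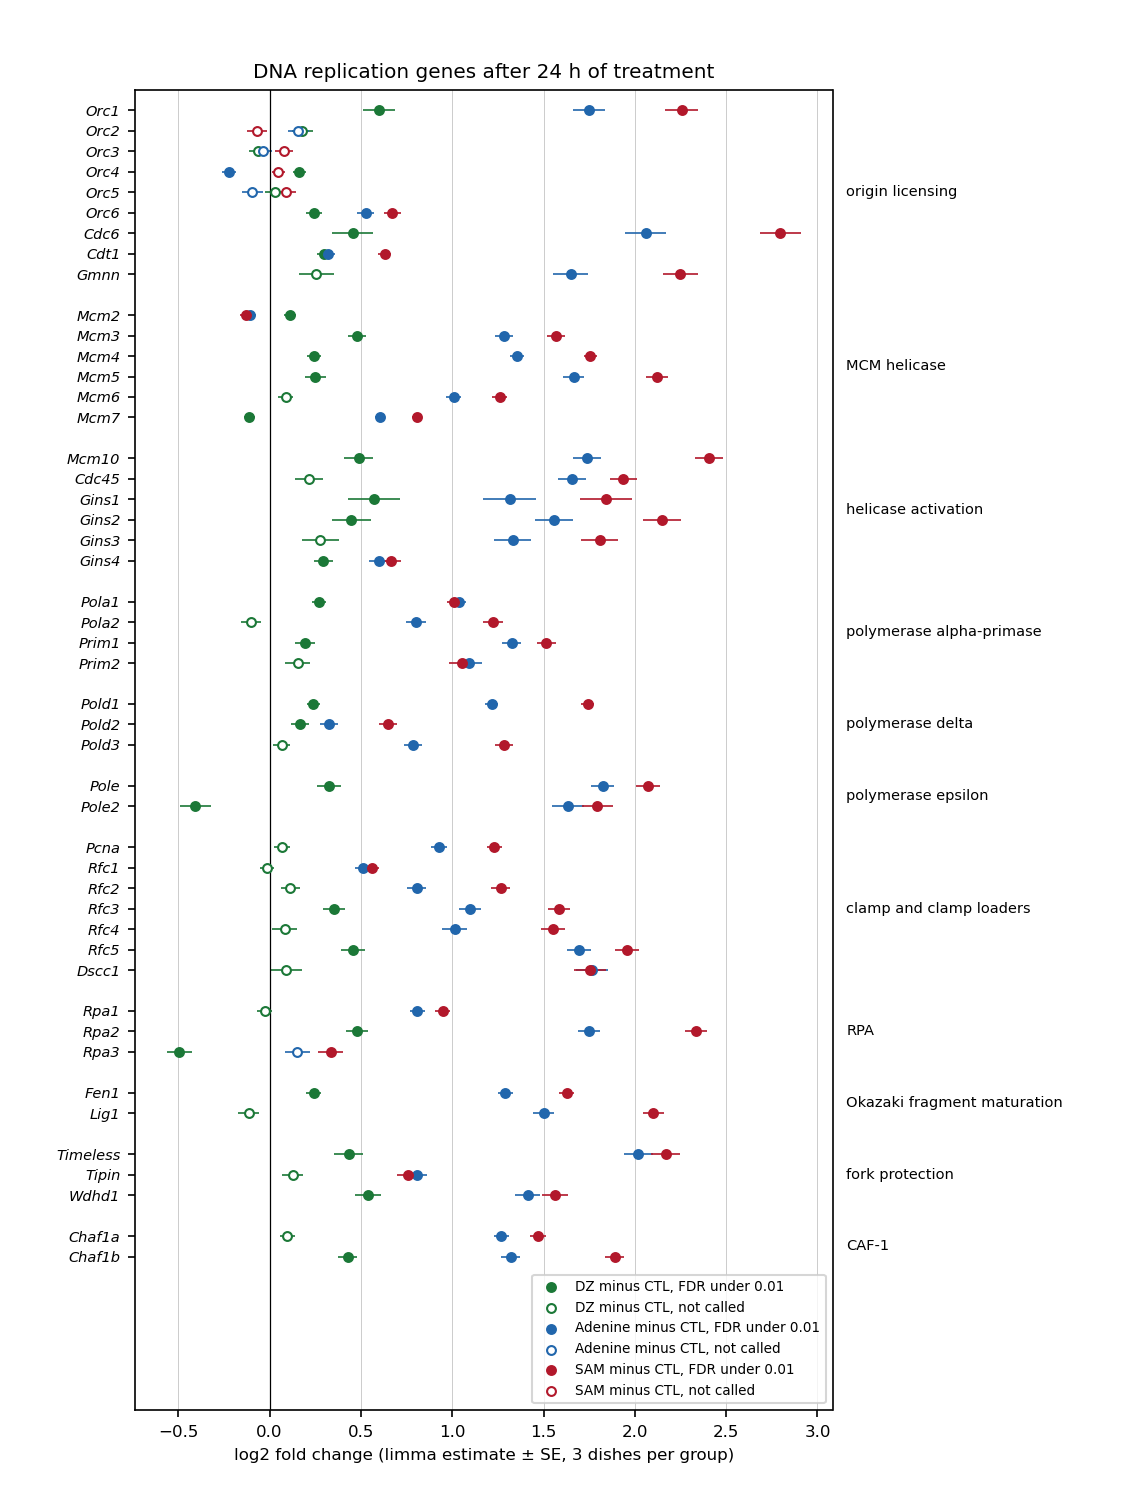
Log2 fold change of each of the 47 members against CTL (horizontal axis, limma estimate ± SE, 3 dishes per group) for DZ (green), adenine (blue) and SAM (red), grouped by complex. Filled points passed an FDR of 0.01 and open points did not. Most red points lie to the right of the blue ones and far to the right of the green ones, whereas Orc2 to Orc5 and Mcm2 stay close to 0.

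Among the licensing factors Cdc6, Orc1 and Gmnn rose most with SAM, Orc6 and Cdt1 rose by less, and Orc2 to Orc5 did not pass the test. Cdc6 (ENSMUSG00000017499, chromosome 11, 98798507 to 98814766 on GRCm39), the ATPase that loads the MCM ring, had the largest change of all members. Its log2 CPM was 2.15, 2.09 and 2.18 in the CTL dishes, 2.31, 2.91 and 2.57 with DZ, 4.26, 4.13 and 4.22 with adenine, and 4.92, 5.01 and 4.89 with SAM. No SAM dish overlapped an adenine dish, and no adenine dish overlapped DZ or CTL. Its log2 fold change was 2.80 ± 0.11 (SE) with SAM, a 6.95-fold rise (adjusted p = 3.04e-12), 2.06 with adenine (adjusted p = 1.77e-10) and 0.46 with DZ (adjusted p = 0.00273). The call for DZ was lost without CTL replicate 2 (0.43) or DZ replicate 2 (0.30), with voom on the recovered reads (0.46, adjusted p = 0.0110), and when only CTL and DZ were fitted (adjusted p = 0.0136). Orc1, an ATPase subunit of the origin recognition complex, rose by 0.60 with DZ, 1.75 with adenine and 2.26 with SAM.

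Orc2, Orc3, Orc4 and Orc5, the other core subunits of that complex, had log2 fold changes between -0.07 and 0.09 with SAM, and none of the 4 passed the test. Orc2 had log2 CPM of 5.13, 5.20 and 5.16 in CTL, 5.21, 5.41 and 5.41 in DZ, 5.35, 5.35 and 5.26 in adenine, and 5.01, 5.15 and 5.12 in SAM. Its SAM and CTL dishes overlapped, with a log2 fold change of -0.07 ± 0.056 (adjusted p = 0.279). Without DZ replicate 1 its difference for DZ, 0.24, passed the test. Orc4 was called in opposite directions, with log2 CPM of 6.02, 5.96 and 6.07 in CTL, 6.20, 6.17 and 6.16 in DZ, 5.75, 5.77 and 5.85 in adenine, and 6.07, 6.05 and 6.07 in SAM. It rose by 0.16 with DZ (adjusted p = 0.00161), a call lost without CTL replicate 2 (0.13), and fell by 0.22 with adenine (adjusted p = 6.44e-05). With plain read totals Orc3, Orc4 and Orc5 were called higher with SAM (0.20, 0.17 and 0.21). Orc2 was then called higher with DZ (0.20) and with adenine (0.22), and its value with SAM turned to 0.054 without a call. The exons of Orc2, Orc3 and Orc4 share 20.7%, 32.9% and 22.2% of their bases with Nif3l1, Akirin2 and Acvr2a on the opposite strand. With SAM those neighbours had -0.17, -0.68 and -0.88. Whether reads were counted by strand is not given in the sources used here, and the part of such reads in these values was not tested.

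Orc6, a smaller subunit needed for licensing, rose by 0.24, 0.53 and 0.67 with DZ, adenine and SAM. Cdt1, the partner of Cdc6 in loading, rose by 0.30, 0.32 and 0.63. Gmnn encodes geminin, which holds Cdt1 in check, and it rose by 1.65 with adenine and 2.25 with SAM, while its value with DZ was 0.26 (adjusted p = 0.0329). That value passed the test without CTL replicate 1 or without DZ replicate 1, at 0.35 in both cases. The difference of Gmnn from Cdt1 within a library was thus -4.26 ± 0.24 log2 units in CTL, -4.29 ± 0.17 in DZ, -2.93 ± 0.043 in adenine, and -2.64 ± 0.0095 in SAM (mean ± SD, n = 3).

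The MCM helicase, a ring of the 6 proteins Mcm2 to Mcm7, had 5 subunits that rose with adenine and with SAM and 1, Mcm2, that did not. Mcm5 (chromosome 8, 75836140 to 75856231) changed most, from 5.30, 5.29 and 5.30 in CTL to 5.37, 5.69 and 5.58 in DZ, 6.99, 6.90 and 6.98 in adenine, and 7.43, 7.44 and 7.38 in SAM (log2 CPM). All SAM dishes were above all adenine dishes, which were above the rest. Its log2 fold change was 0.25 with DZ, 1.66 with adenine, and 2.12 ± 0.059 with SAM (adjusted p = 4.97e-14). The call for DZ was lost without DZ replicate 2 (0.18). Mcm4, Mcm3 and Mcm6 rose by 1.76, 1.57 and 1.26 with SAM and by 1.36, 1.28 and 1.01 with adenine. With DZ, Mcm3 and Mcm4 rose by 0.48 and 0.24, and Mcm6 had a value of 0.09 that did not pass the test.

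Mcm7 was lower with DZ and higher with adenine and SAM. Its log2 CPM was 6.77, 6.78 and 6.73 in CTL, 6.64, 6.67 and 6.64 in DZ, 7.39, 7.32 and 7.38 in adenine, and 7.59, 7.53 and 7.58 in SAM. The groups did not overlap. It fell by 0.11 with DZ (adjusted p = 0.00448), a call that was lost without CTL replicate 1, CTL replicate 2, DZ replicate 1 or DZ replicate 3 at almost the same value (-0.11 to -0.10), without a variance trend in limma (adjusted p = 0.0121), and with plain read totals (-0.085), and it rose by 0.60 with adenine and 0.81 with SAM.

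Mcm2 (ENSMUSG00000002870, chromosome 6, 88860452 to 88875762) was the only member called lower with SAM. Its log2 CPM was 7.90, 7.83 and 7.94 in CTL, 7.99, 7.98 and 8.03 in DZ, 7.78, 7.75 and 7.82 in adenine, and 7.74, 7.75 and 7.78 in SAM. DZ dishes lay just above the CTL dishes, and adenine and SAM dishes just below them. The log2 fold change was 0.11 ± 0.032 with DZ (adjusted p = 0.00700), -0.11 with adenine (adjusted p = 0.00693), and -0.13 with SAM (adjusted p = 0.00147). These small calls depended on the scaling and on single libraries, since with plain read totals Mcm2 had -0.046 with adenine and -0.0098 with SAM, neither called. The call for SAM was lost without CTL replicate 3 (-0.11). The call for adenine was lost without CTL replicate 1 (-0.10), CTL replicate 3 (-0.082), adenine replicate 1 (-0.11), or adenine replicate 2 (-0.091). The call for DZ was lost without CTL replicate 1 (0.12), CTL replicate 2 (0.081), DZ replicate 1 (0.12), DZ replicate 2 (0.12), or DZ replicate 3 (0.096), and with median centring (0.098). Without a variance trend the calls for DZ and adenine were lost (adjusted p = 0.0215 and 0.0208).

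Mcm2 started highest, and the subunits drew closer in level as the others rose, with Mcm2 counted or left out. Per kilobase of transcript, Mcm2 stood at 70.3 ± 2.8 CPM in CTL and Mcm5, the lowest, at 8.53 ± 0.029. In SAM, Mcm2 stood at 64.1 ± 0.81 CPM per kb and Mcm7 at 64.0 ± 1.3, a difference within the SD, and the lowest, Mcm3, at 32.9 ± 0.29. The range from the highest to the lowest of the 6 subunits, in log2 CPM per kb, was 3.04 ± 0.053 in CTL, 2.90 ± 0.17 in DZ, 1.33 ± 0.033 in adenine, and 0.97 ± 0.014 in SAM. Without Mcm2 the range of the other 5 was 2.10, 1.74, 1.10 and 0.96 in the same order. Over all 47 members, Mcm2 had the highest level per kilobase in CTL, ahead of Pcna and Cdt1, and in SAM it came after Pcna and Cdt1. Lengths are those of the canonical transcripts, so levels between genes shift if another isoform is expressed.

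**Figure D2:**
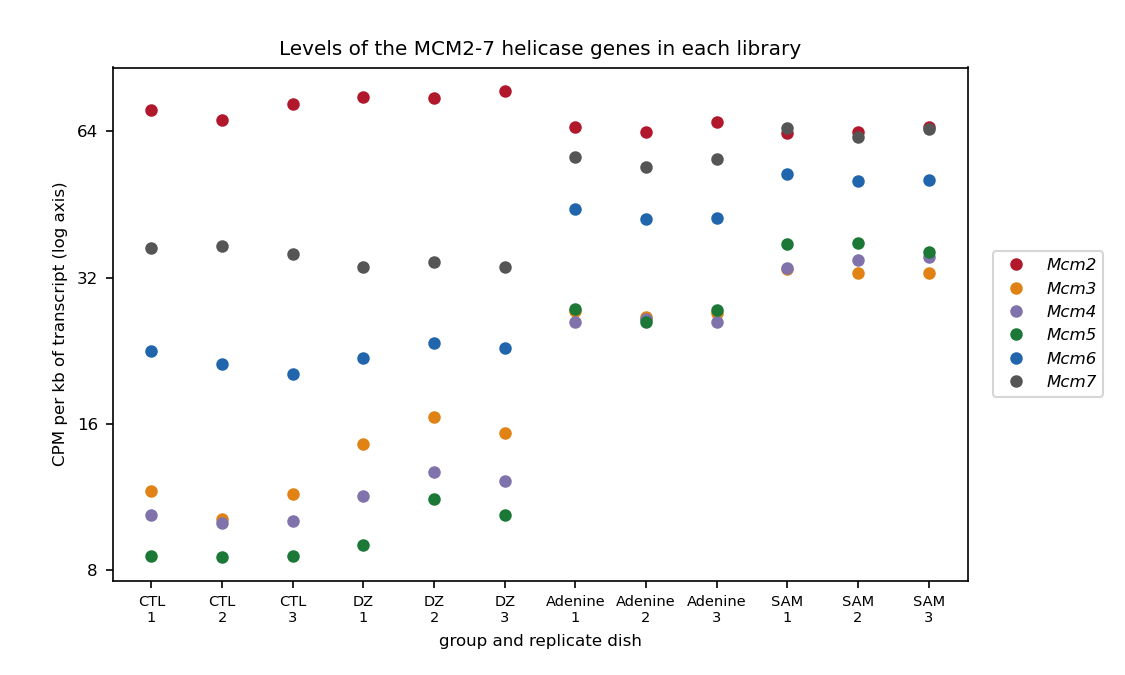
Level of the 6 MCM genes in each of the 12 libraries, in CPM per kb of canonical transcript on a log2 axis. Mcm2 (red) has group means between 64.1 (SAM) and 76.0 (DZ), while the other subunits rise in adenine and SAM. The spread between subunits narrows from 3.04 log2 units in CTL to 0.97 in SAM.

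The factors that turn the loaded ring into a moving helicase all rose with adenine and SAM. Mcm10, which is needed for origin firing despite its name and is not part of the ring, had log2 CPM of 4.11, 3.98 and 4.07 in CTL, 4.30, 4.72 and 4.59 in DZ, 5.72, 5.82 and 5.84 in adenine, and 6.46, 6.46 and 6.45 in SAM. Each group lay above the one before it without overlap. It rose by 0.49, 1.74 and 2.41 ± 0.078 (adjusted p with SAM = 2.73e-13). Gins4, a subunit of the GINS complex, rose least, from 4.99, 5.07 and 5.18 in CTL to 5.35, 5.36 and 5.41 in DZ, 5.64, 5.61 and 5.78 in adenine, and 5.75, 5.71 and 5.77 in SAM. Its adenine and SAM dishes overlapped, and its log2 fold changes were 0.29, 0.60 and 0.67. The other GINS subunits Gins1, Gins2 and Gins3 rose by 1.84, 2.15 and 1.81 with SAM and 1.31, 1.56 and 1.33 with adenine, and Cdc45, the third component of the active helicase, rose by 1.94 and 1.66. With DZ, Gins1 and Gins2 rose by 0.57 and 0.45, whereas Gins3 (0.28) and Cdc45 (0.22) did not pass the test. The DZ calls of Gins1 and Gins2 were lost without CTL replicate 1 (0.38 and 0.39) or DZ replicate 2 (0.47 and 0.31), that of Gins2 also with voom (adjusted p = 0.0103), and Gins3 and Cdc45 were called higher without DZ replicate 1 (0.43 and 0.30). The exons of Gins2 share 67.3% of their bases with Gse1 on the opposite strand, which had -0.38 with SAM.

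The polymerase genes rose with adenine and SAM without exception. In polymerase alpha-primase, which makes the RNA-DNA primers, Prim1, the catalytic primase subunit, had log2 CPM of 5.17, 5.32 and 5.23 in CTL, 5.34, 5.50 and 5.46 in DZ, 6.52, 6.51 and 6.66 in adenine, and 6.71, 6.76 and 6.78 in SAM. It rose by 0.19, 1.32 and 1.51 with DZ, adenine and SAM. The DZ call of Prim1 (adjusted p = 0.00528) was lost without CTL replicate 1 (0.16), CTL replicate 3 (0.19), DZ replicate 2 (0.16), or DZ replicate 3 (0.18), without a variance trend (adjusted p = 0.0148), and with voom (adjusted p = 0.0128). Pola1, the polymerase subunit of the same complex, had 4.85, 4.91 and 4.89 in CTL, 5.11, 5.16 and 5.18 in DZ, 5.86, 5.93 and 5.97 in adenine, and 5.93, 5.89 and 5.86 in SAM. Adenine and SAM dishes overlapped for Pola1, and its rises were 0.27, 1.04 and 1.01. The accessory Pola2 rose by 0.80 and 1.22 with adenine and SAM and the large primase subunit Prim2 by 1.09 and 1.05, while their values with DZ, -0.10 and 0.15, did not pass the test.

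Polymerase delta copies mainly the lagging strand. Its catalytic subunit Pold1 had log2 CPM of 4.92, 4.86 and 4.95 in CTL, 5.16, 5.16 and 5.13 in DZ, 6.11, 6.14 and 6.12 in adenine, and 6.71, 6.63 and 6.62 in SAM. The 4 groups were fully separated, and it rose by 0.24, 1.22 and 1.74 ± 0.036 (adjusted p with SAM = 2.51e-15). The accessory subunit Pold2 rose less, with 4.98, 5.01 and 4.98 in CTL, 5.10, 5.15 and 5.22 in DZ, 5.42, 5.24 and 5.29 in adenine, and 5.62, 5.62 and 5.68 in SAM. Its rises were 0.17, 0.33 and 0.65, of which the one with DZ (adjusted p = 0.00856) was lost without CTL replicate 1 (0.16), CTL replicate 2 (0.18), CTL replicate 3 (0.16), DZ replicate 2 (0.17), or DZ replicate 3 (0.14), without a variance trend, with median centring (0.15), and with voom (adjusted p = 0.0134 to 0.0147). Pold3 rose by 0.79 with adenine and 1.28 with SAM, and had 0.07 with DZ, which did not pass the test.

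Polymerase epsilon copies mainly the leading strand, and the 2 of its genes that are among the members moved apart with DZ. The catalytic subunit Pole had log2 CPM of 4.99, 4.90 and 4.94 in CTL, 5.07, 5.38 and 5.37 in DZ, 6.74, 6.77 and 6.80 in adenine, and 7.03, 7.07 and 6.94 in SAM. The accessory subunit Pole2 had 2.08, 2.23 and 2.42 in CTL, 1.78, 1.87 and 1.86 in DZ, 3.89, 3.87 and 3.86 in adenine, and 3.94, 4.08 and 4.09 in SAM. Thus the DZ dishes lay above CTL for Pole and below CTL for Pole2. Pole rose by 0.33, 1.82 and 2.07 with DZ, adenine and SAM. Pole2 fell by 0.41 ± 0.087 with DZ (adjusted p = 0.000963) and rose by 1.64 with adenine and 1.80 with SAM. The fall of Pole2 kept its direction in every alternative that gave it a value, and its adjusted p was 0.0102 when only CTL and DZ were fitted.

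**Figure D3:**
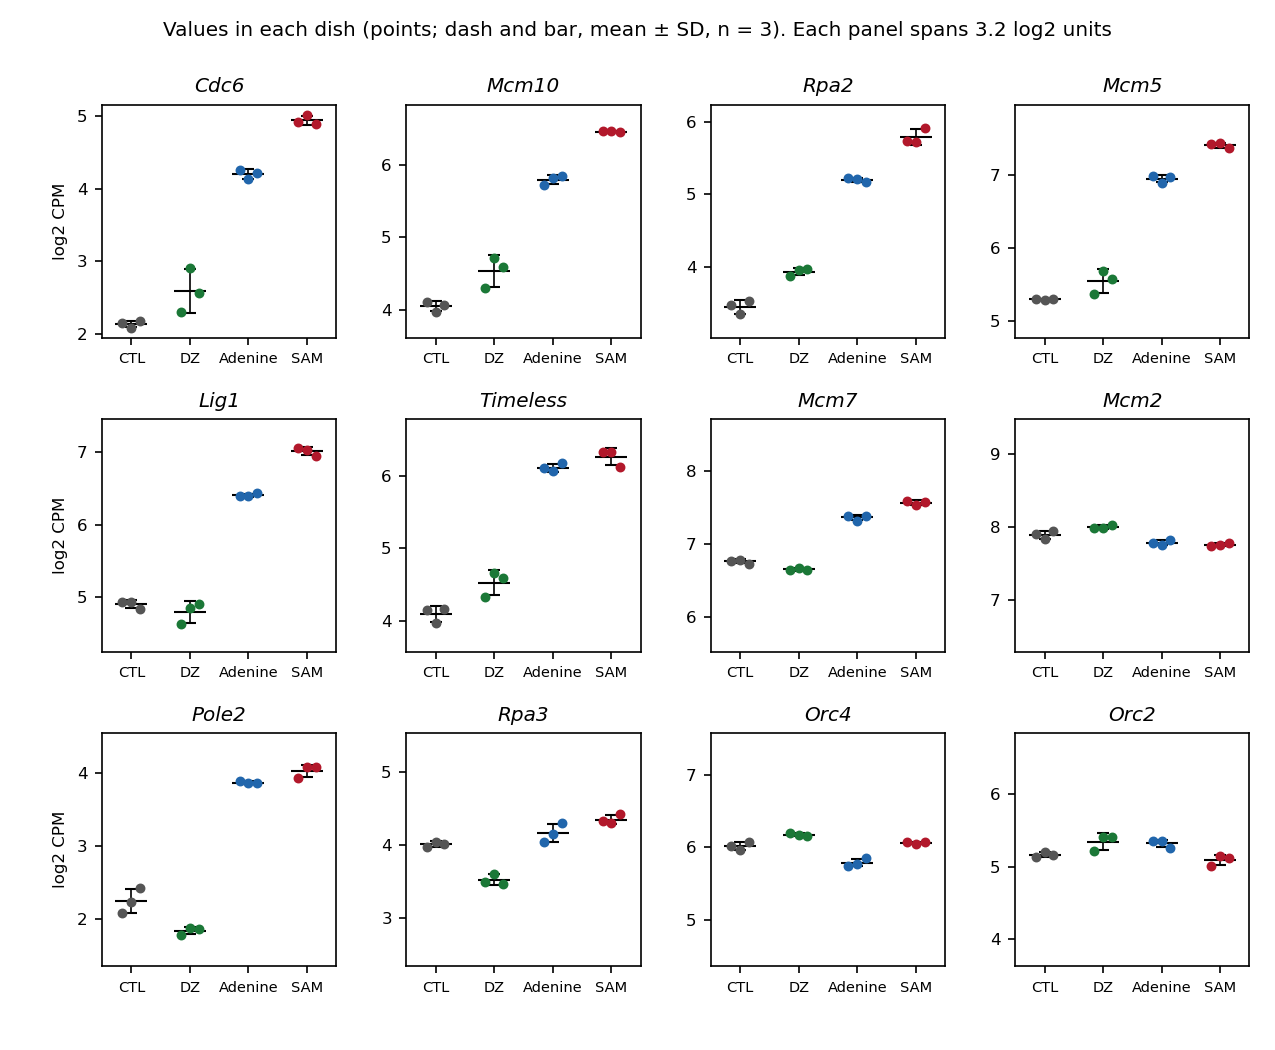
Log2 CPM of 12 members in each of the 3 dishes per group (points), with the mean and SD (dash and bar). All panels span the same number of log2 units, so that heights can be compared. Cdc6, Mcm10, Rpa2, Mcm5, Lig1 and Timeless climb in adenine and SAM. Pole2 and Rpa3 dip with DZ, and Mcm7 is only slightly lower there (-0.11). Mcm2, Orc4 and Orc2 move little on this scale, although Mcm2 and Orc4 were called higher with DZ and lower with adenine.

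The sliding clamp and its loaders rose with adenine and SAM in all 7 cases, against 30.6% and 33.7% of all genes. With DZ 2 of the 7 rose (28.6%), close to the 22.6% of all genes called higher. Pcna, the ring that tethers polymerases to DNA, rose by 0.93 with adenine and 1.23 with SAM, from 59.4 ± 1.3 to 139.5 ± 6.4 CPM per kb between CTL and SAM. A processed pseudogene, Pcna-ps2, is listed as well and rose by 0.89 and 1.19, so that reads could have been shared between them. Rfc5, a small subunit of the clamp loader, had log2 CPM of 3.71, 3.84 and 3.91 in CTL, 4.18, 4.25 and 4.39 in DZ, 5.43, 5.52 and 5.59 in adenine, and 5.72, 5.73 and 5.86 in SAM. Rfc1, the large subunit, had 6.35, 6.42 and 6.30 in CTL, 6.30, 6.42 and 6.31 in DZ, 6.88, 6.86 and 6.87 in adenine, and 6.97, 6.90 and 6.89 in SAM. CTL and DZ dishes overlapped for Rfc1 but not for Rfc5. Rfc5 rose by 0.46, 1.70 and 1.96, while Rfc1 had -0.02 with DZ, not called, and rose by 0.51 and 0.56. Rfc2, Rfc3 and Rfc4 rose by 1.27, 1.58 and 1.55 with SAM and 0.81, 1.10 and 1.01 with adenine, and of these Rfc3 also rose with DZ (0.35). Dscc1, part of an alternative loader that acts in sister chromatid cohesion, rose by 1.76 with adenine and 1.75 with SAM. The exons of Rfc5 share 41.4% of their bases with Wsb2 on the opposite strand, which had -0.48 with SAM.

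The 3 subunits of RPA, which coats single-stranded DNA as 1 complex, did not move alike. Rpa2, the middle subunit, had log2 CPM of 3.48, 3.35 and 3.53 in CTL, 3.88, 3.96 and 3.97 in DZ, 5.22, 5.21 and 5.17 in adenine, and 5.74, 5.72 and 5.91 in SAM. Rpa3, the smallest, had 3.97, 4.05 and 4.02 in CTL, 3.49, 3.61 and 3.47 in DZ, 4.05, 4.16 and 4.30 in adenine, and 4.33, 4.30 and 4.43 in SAM. DZ dishes lay above CTL for Rpa2 and below CTL for Rpa3. Rpa2 rose by 0.48, 1.75 and 2.34 ± 0.061 (adjusted p with SAM = 2.46e-14). Rpa3 fell by 0.49 ± 0.070 with DZ (adjusted p = 2.33e-05), the largest fall of any member, had 0.15 with adenine (adjusted p = 0.0642), and rose by 0.34 with SAM (adjusted p = 0.000417). Rpa1, the large subunit, had -0.03 with DZ, not called, and rose by 0.81 and 0.95.

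At the end of Okazaki fragment synthesis Fen1 cuts the flap and Lig1 seals the nick. Fen1 had log2 CPM of 4.73, 4.62 and 4.67 in CTL, 4.84, 4.95 and 4.95 in DZ, 5.96, 5.94 and 6.00 in adenine, and 6.32, 6.29 and 6.29 in SAM. Lig1 had 4.94, 4.94 and 4.84 in CTL, 4.63, 4.85 and 4.91 in DZ, 6.39, 6.40 and 6.43 in adenine, and 7.06, 7.03 and 6.95 in SAM. DZ separated from CTL for Fen1 and overlapped it for Lig1. Fen1 rose by 0.24, 1.29 and 1.63, and Lig1 had -0.11 with DZ (adjusted p = 0.106) and rose by 1.50 and 2.10.

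Timeless and Tipin form a complex that stabilises stalled forks. Timeless had log2 CPM of 4.15, 3.97 and 4.16 in CTL, 4.33, 4.66 and 4.59 in DZ, 6.10, 6.06 and 6.17 in adenine, and 6.33, 6.33 and 6.12 in SAM. Tipin had 4.59, 4.73 and 4.81 in CTL, 4.83, 4.90 and 4.77 in DZ, 5.54, 5.50 and 5.51 in adenine, and 5.38, 5.48 and 5.54 in SAM. Both had adenine and SAM dishes that overlapped, and the partners differed in size of change. Timeless rose by 0.43, 2.02 and 2.17 ± 0.080, and Tipin had 0.13 with DZ, not called, and rose by 0.81 and 0.76. Wdhd1, which links the helicase to polymerase alpha, rose by 0.54, 1.41 and 1.56.

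CAF-1 places new histones behind the fork. Its subunit Chaf1a had log2 CPM of 5.91, 5.73 and 5.82 in CTL, 5.88, 5.96 and 5.91 in DZ, 7.08, 7.08 and 7.11 in adenine, and 7.33, 7.31 and 7.24 in SAM. Chaf1b had 3.66, 3.72 and 3.69 in CTL, 4.04, 4.10 and 4.20 in DZ, 4.96, 5.02 and 5.05 in adenine, and 5.59, 5.52 and 5.63 in SAM. For Chaf1b all 4 groups were separated, while DZ and CTL overlapped for Chaf1a. Chaf1a had 0.10 with DZ (adjusted p = 0.0591) and rose by 1.27 and 1.47, and Chaf1b rose by 0.43, 1.32 and 1.89. The exons of Chaf1a share 51.0% of their bases with Ubxn6 on the opposite strand, which had -1.53 with SAM. In all, 16 of the 47 members share exon bases with another gene of the table, 15 of them on the opposite strand and 1, Orc5, on the same strand.

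SAM and adenine were given at the same concentration and for the same time, and the replication genes were mostly higher with SAM. In the direct comparison 31 of the 47 members were higher with SAM than with adenine and 1 was lower, against 20.8% and 22.0% of all genes, with a median difference of 0.28 log2 units (all genes 0.00012). The largest differences were in Cdc6 (0.74 ± 0.11), Mcm10 (0.67 ± 0.078), Gmnn (0.60), Lig1 (0.60), Gins2 (0.59) and Rpa2 (0.59). Only Orc2 was lower with SAM, by -0.23 (adjusted p = 0.00339), and this call was lost without adenine replicate 1 (-0.21), adenine replicate 2 (-0.21) or SAM replicate 1 (-0.18), and with plain read totals. The 15 members without a call were Orc3, Orc5, Orc6, Mcm2, Gins4, Pola1, Prim2, Pole2, Rfc1, Dscc1, Rpa1, Rpa3, Timeless, Tipin and Wdhd1, so none of the 3 fork protection factors was called. When 1 of the 6 libraries was left out, 27 to 29 members were higher (27 without SAM replicate 3). The call of Cdc45 was lost whichever it was (0.25 to 0.30), and that of Pole unless it was SAM replicate 3 (0.22 to 0.26). Gins1 (0.47 to 0.50), Prim1 (0.16 to 0.18) and Rfc5 (0.22 to 0.26) lost theirs without adenine replicate 1, adenine replicate 2 or SAM replicate 3, Gins1 also without SAM replicate 1, and Prim1 also without SAM replicate 2. Pole, Prim1 and Gins1 lost theirs without a variance trend too (adjusted p = 0.0154, 0.0176 and 0.0130). Orc5 was called higher without adenine replicate 2 (0.22) and Orc6 without adenine replicate 1 (0.18). With plain read totals 36 members were higher and 0 lower, while of all 12591 genes 3573 were called higher and 2081 lower. Thus 63.2% of the calls over all genes were higher instead of 48.6%.

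The replication genes were lower with DZ than with adenine. In that comparison 41 of the 47 members were lower with DZ and 2 higher, against 32.2% and 32.1% of all genes, with a median of -0.90 log2 units (all genes -0.0015). Without DZ replicate 1 the counts were 40 lower and 2 higher, with a median of -0.86. Pole2 (-2.04), Dscc1 (-1.67), Lig1 (-1.61), Cdc6 (-1.60) and Timeless (-1.58) differed most. Mcm2 (0.22) and Orc4 (0.39) were higher with DZ, and Orc2, Orc3, Orc5 and Cdt1 were not called. Cdt1 had nearly the same rise in both, 0.30 with DZ and 0.32 with adenine, and their difference of -0.03 had an SE of 0.034 (adjusted p = 0.499). The call of Pold2 (-0.16) was lost without adenine replicate 1 (-0.11), adenine replicate 3 (-0.17), DZ replicate 1 (-0.13) or DZ replicate 2 (-0.16), without a variance trend (adjusted p = 0.0129), with median centring (-0.12), and when only adenine and DZ were fitted (adjusted p = 0.0179).

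**Figure D4:**
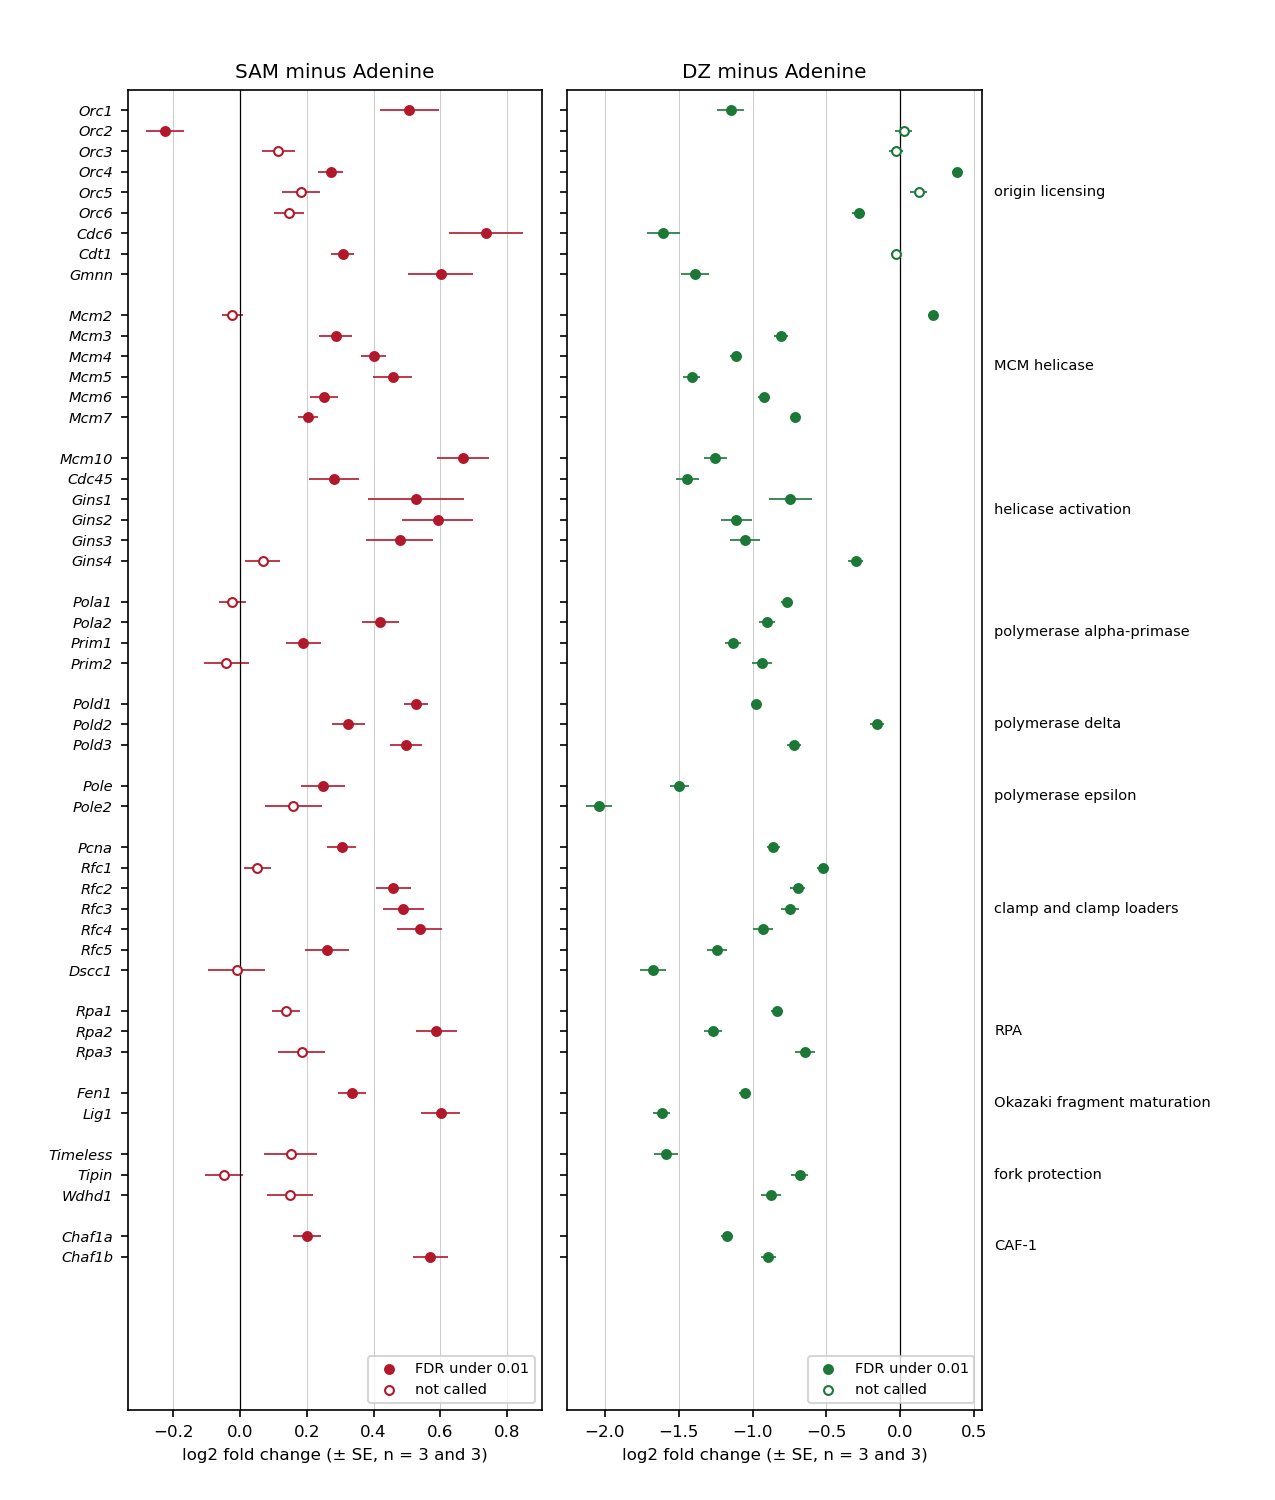
Direct comparisons of SAM with adenine (left) and DZ with adenine (right) for each of the 47 members, as log2 fold change ± SE from 3 dishes per group, with filled points where the FDR was under 0.01. On the left most points lie between 0 and 0.74, and on the right most lie below 0, down to -2.04 for Pole2.

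Other genes of DNA replication and the cell cycle were read from lists chosen with earlier results of these data known. Their counts stand beside shares over all genes of 33.7% higher and 35.7% lower with SAM, 30.6% and 31.0% with adenine, and 22.6% and 23.4% with DZ. Among 28 further replication factors, 23 were higher and 1 lower with SAM, 23 and 0 with adenine, and 12 and 3 with DZ, with median log2 fold changes of 0.65, 0.53 and 0.08. Uhrf1, which brings the maintenance DNA methyltransferase to new DNA, rose by 2.59 with SAM, the kinase gene Cdc7 by 2.34, and the firing factor Topbp1 by 1.27. The gene that fell with SAM was Mtbp (-0.16), and those that fell with DZ were Asf1b (-0.36), Pold4 (-0.83) and Supt16 (-0.25). Pold4, the smallest subunit of polymerase delta, was thus lower with DZ while Pold1 was higher. Of 11 genes of deoxynucleotide supply, 9 rose and 2 fell with SAM, 9 and 1 with adenine, and 7 and 1 with DZ. Tk1, the thymidine kinase of S phase, rose by 3.00 with SAM, and the ribonucleotide reductase genes Rrm1 and Rrm2 rose by 1.63 and 1.74. Rrm2b, the reductase subunit used outside S phase and induced by p53, fell by 0.29 with DZ, 0.50 with adenine, and 1.25 with SAM, and Dctd fell by 0.43 with SAM. Genes named for a fall here were chosen after their values were seen.

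Of 18 listed G1/S regulators, 14 rose and 2 fell with SAM, 14 and 1 with adenine, and 6 and 4 with DZ, the last pair being close to the shares of all genes. Ccnd1 (cyclin D1) rose by 1.61 with SAM, E2f7 by 2.85 and Cdkn2c by 1.57. Those that fell with SAM were the CDK inhibitor genes Cdkn1a (-1.16) and Cdkn1b (-0.51), while with DZ Cdkn1a (-0.75), Rb1 (-0.30), Cdk2 (-0.18) and Cdk4 (-0.16) fell. All 20 mitotic genes rose with adenine and with SAM, with medians of 1.70 and 2.04, and 11 rose with DZ, with a median of 0.24. Bub1, Aurkb and Kif11, which act in chromosome segregation, rose by 2.41, 2.71 and 2.23 with SAM. The 15 members with an E2F match had a median log2 fold change with SAM of 1.58 (range 0.079 to 2.80) and the 22 without a match had 1.35 (range -0.13 to 2.41). Orc3 held the motif shown above and had 0.08 with SAM. The windows of Mcm10 and Rpa2 held no full match, and these genes had 2.41 and 2.34. The window of Mcm10 ends in TTTGGCG, so a match running past its end would be missed. Whether E2F sites bear on these values was not tested.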

How the data were processed

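Poly(A) RNA of 12 dishes was sequenced. For each library the authors used Trimmomatic, then HISAT2 against GRCm39 with GENCODE annotation, then StringTie, and dropped genes that fell under 1 CPM in any library. What they deposited is log2 CPM on normalized library sizes, made with edgeR, and how the scaling factors were computed is not given in the sources used here. Its values were analysed as they stand. The method behind them can move small changes, so the scaling was also replaced.

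Whole reads were recovered by taking off a prior count of 2, and 100% of 151092 values lay within 0.01 of a whole read. The scaling factors of the libraries were between 0.962 and 1.05. The 4 groups of 3 dishes entered 1 limma model (version 3.58.1, R 4.3.3, with lmFit, contrasts, and trended eBayes), with Benjamini-Hochberg adjustment over all 12591 genes and an FDR of 0.01. The procedure was tested on simulated data. Exact permutation of 3 against 3 dishes cannot give p below 0.1 and was not used. Same-numbered dishes did not deviate together (r from -0.142 to 0.181 over 18 pairs of libraries), so the numbers were not taken as pairs. Fold changes are on the log2 scale with the prior count, which understates the change of low genes.

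The members and lists were chosen with earlier results of these data known. Values in every dish are given for the members with the largest and smallest change with SAM in each group of 3 or more factors, for both members of groups of 2, and for members called in opposite directions. Promoters are given for the 3 largest and 2 smallest changes with SAM, and at most 3 genes are named per list, those with the smallest adjusted p with SAM, apart from genes that fell. Gene positions and lengths come from GENCODE vM39 on GRCm39, and promoter windows come from RefSeq on GRCm38.p6, with no conversion between the builds. No window was matched for 10 members. Tables and plots were made in Python 3.11.15 (pandas 2.3.3, numpy 2.4.6, matplotlib 3.10.9). Alternatives were no variance trend, a mean log2 value of at least 3, a pseudocount of 1 CPM, median centring, plain read totals, voom on the recovered reads, a separate model per comparison, a replicate block, an FDR of 0.05, a required change of 1 log2 unit, and leaving out each library in turn.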

Additional observations from a re-analysis of the deposited data

How the results depend on the processing

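The counts of members called and their medians kept their value within 1.5 times or within the spread between dishes (0.037 log2 units, the SD of the members' median within groups) in 198 of 230 recomputations, and no median changed sign. A required change of 1 log2 unit left 0 members higher and 0 lower with DZ, 29 and 0 with adenine, and 33 and 0 with SAM. It left 0 higher and 0 lower for SAM minus adenine, and 0 higher and 19 lower for DZ minus adenine. Of all 12591 genes, 149, 732 and 939 were called higher at that size with DZ, adenine and SAM. For SAM minus adenine and DZ minus adenine these were 58 and 241. Falls of that size were not tallied over all genes. Small falls were the least stable. The 2 members lower with adenine became 1 without a variance trend and 1 with plain read totals (1 to 2 when 1 library was left out, 1 without CTL replicate 1 or 3 or adenine replicate 1 or 2). The 1 member lower with SAM became 0 with plain read totals (0 to 1, 0 without CTL replicate 3), and the 1 lower for SAM minus adenine became 0 (0 to 1, 0 without adenine replicate 1 or 2 or SAM replicate 1). The median with adenine was 1.09 over members with a mean of at least 3, 1.10 with a pseudocount of 1 CPM, 1.16 with median centring, and 1.28 with plain read totals (1.13 to 1.24 when 1 library was left out). The median with SAM was 1.49, 1.48, 1.51 and 1.67 under the same 4 settings. The median for SAM minus adenine was 0.34 with plain read totals, that with DZ was 0.17 to 0.24 and that for DZ minus adenine -0.94 to -0.86 when 1 library was left out. Signs turned only for differences that were not called. With plain read totals these were Rfc1 with DZ (0.010), Orc3 with adenine (0.027), Orc2 with SAM (0.054), Mcm2 (0.036), Pola1 (0.037), Prim2 (0.019), Dscc1 (0.049) and Tipin (0.011) for SAM minus adenine, and Orc2 for DZ minus adenine (-0.015). With median centring they were Dscc1 for SAM minus adenine (0.0013) and Cdt1 (0.010) and Orc3 (0.0074) for DZ minus adenine. When 1 library was left out, the ranges were -0.056 to 0.016 for Rfc1 with DZ, -0.054 to 0.0016 for Pola1 with SAM minus adenine, and -0.011 to 0.088 for Orc2 with DZ minus adenine. These turned without CTL replicate 2, DZ replicate 1 or DZ replicate 3 (0.016, 0.0089 and 0.0016), without adenine replicate 3 (0.0016), and without adenine replicate 3, DZ replicate 2 or DZ replicate 3 (-0.0077, -0.011 and -0.011). Turns also came for Orc3 with adenine without CTL replicate 2 (0.0083), Orc5 with DZ without CTL replicate 3 or DZ replicate 3 (-0.0075 and -0.0047), Rpa1 with DZ without DZ replicate 1 (0.024), Dscc1 for SAM minus adenine without SAM replicate 3 (0.017), and Orc3 for DZ minus adenine without DZ replicate 3 (0.0028). With a replicate block the counts were 25 higher and 3 lower with DZ, 41 and 2 with adenine, 42 and 1 with SAM, 31 and 1 for SAM minus adenine, and 2 and 40 for DZ minus adenine, and the block lost Pold2 and gained Orc2 with DZ. Dishes share only a number, so this was no paired design. Of 1795 recomputed values of the members named with values in every dish, 1703 kept their sign and call. The cause of these changes was not tested. The filter on low means left out 3 members, and 3 dishes per group and a depth of at least 113 reads per member limit what small differences can show.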
